A study of Arabidopsis thaliana with 6 samples.

Results

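The JASMONATE ZIM-DOMAIN (JAZ) family of jasmonate repressors was examined by way of 10 Arabidopsis loci, JAZ1, JAZ2, JAZ3, JAZ5, JAZ6, JAZ7, JAZ8, JAZ9, JAZ10 and JAZ12. The family was chosen by the fall of JAZ8 mRNA in the very comparison described here, so JAZ8 is given as a description without a test, and the other 9 members show whether the family moved with it. All 10 members had reads, among 21671 transcripts with reads in at least 1 library, and all 10 passed the filter on low counts that left 14762 genes for testing. RNA was sequenced from leaf mesophyll protoplasts, photosynthetic leaf cells freed of their walls, of the Col-0 ecotype of Arabidopsis thaliana. In the GmWRI1 group, the cells were transfected with 35S:GmWRI1-A, in which a viral promoter active in most plant cells drives the soybean gene for WRINKLED1, an AP2-type transcription factor known for activating fatty acid synthesis genes in seeds. In the mCHERRY group, the cells were transfected with 35S:mCHERRY, which makes a red fluorescent protein and served as the negative control. RNA of both groups was taken after 16 h, and each group had 3 libraries that the series description calls biological replicates. Both groups went through wall digestion and plasmid uptake, no untransfected cells were analysed here, and no sorting of transfected cells is described, so each library averages cells that did and did not take up a plasmid.

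JAZ proteins hold jasmonate responses off. They bind MYC2 and related transcription factors and bring in the corepressor TOPLESS, most of them through the adaptor NINJA. When the active hormone, jasmonoyl-isoleucine, joins a JAZ protein to the F-box protein COI1, the JAZ protein is ubiquitinated and degraded and the MYC factors are freed. Many JAZ genes are themselves switched on by jasmonate and by wounding, which gives the pathway a negative feedback loop.

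The libraries held 11748328, 6962316 and 4950522 gene counts in GmWRI1 and 8227115, 6253001 and 4155836 in mCHERRY. Levels are given as CPM, the counts of a gene relative to its library's total, scaled with the trimmed mean of M values (TMM), and 3 counts, taken as the limit of detection, equalled 0.255 to 0.722 CPM depending on the library. These limits cover counting error only, because reads were not counted by molecular identifiers. The labelled tissue was checked against marker genes. All 6 mesophyll markers had counts, with a summed level of 720.2 to 809.5 CPM in GmWRI1 and 293.5 to 300.6 CPM in mCHERRY. Of the 6, 5 were higher in GmWRI1 at an adjusted p under 0.05, against 20.4% of all tested genes. RBCS1A, a small subunit of Rubisco, led with a log2 fold change of 2.95. The other marker, CA1, had a log2 fold change of -0.15 and did not pass that limit. The 5 epidermis and guard cell markers summed to 1.21 to 3.73 CPM in GmWRI1 and 1.47 to 2.43 CPM in mCHERRY, and the 4 vascular markers to 0.277 to 0.940 CPM and 0.487 to 0.742 CPM. The 5 higher mesophyll markers thus moved with the groups, and their part in the JAZ results was not tested. In bulk RNA of this kind, fewer cells of a type and less RNA per cell cannot be told apart.

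The family did not move as a block. Of the 9 members other than JAZ8, 0 were down-regulated, which required an adjusted p under 0.05 in edgeR's quasi-likelihood test and a log2 fold change under -1 and was met by 1.45% of all tested genes. None of the 9 was up-regulated, with the same p limit and a log2 fold change over 1, by which 9.44% of tested genes were called, and DESeq2 likewise called 0 of them in either direction. Without the fold limit, 3 of the 9 were lower in GmWRI1 (JAZ1, JAZ3 and JAZ7), against 14.6% of tested genes, and 2 were higher (JAZ9 and JAZ10), against 20.4%. At an unadjusted p under 0.05 the counts were also 3 and 2, against 19.3% and 24% of tested genes. In 5 of the 9 all GmWRI1 libraries lay below all mCHERRY libraries (21.1% of tested genes), and in 2 they lay above (24.9%). The median log2 fold change was -0.17 over the 10 members and also -0.17 over the 9 without JAZ8, against -0.01 over all tested genes, of which 70.2% had an absolute log2 fold change under 0.5.

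**Figure D1:**
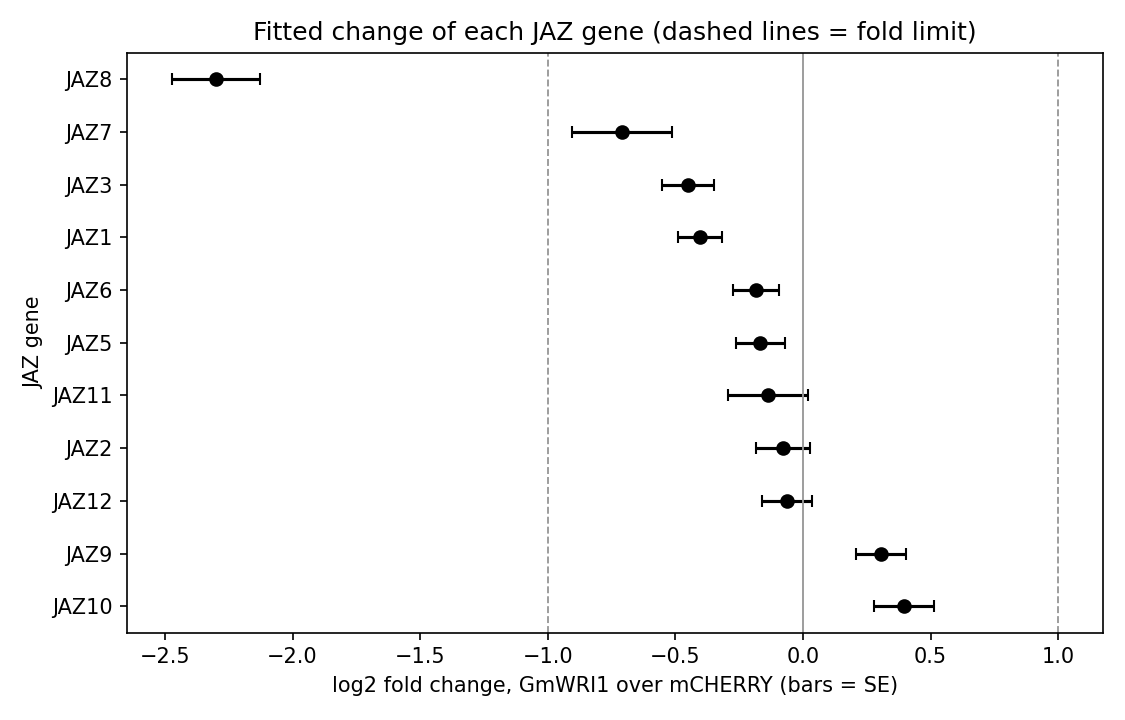
Log2 fold change, GmWRI1 over mCHERRY, of each JAZ member and of JAZ11, which is not among the 10; bars are the SE from the edgeR fit over 3 libraries a group and dashed lines mark the fold limits of -1 and 1. JAZ8, at -2.30, lies apart from the other 9 members, which run from -0.71 for JAZ7 to 0.40 for JAZ10.

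JAZ8 (AT1G30135, chr1:10596352-10597341, plus strand) encodes a short JAZ protein that lacks the canonical degron bound by COI1 and recruits TOPLESS directly. Its mRNA was at 15.0, 16.2 and 29.7 CPM in the GmWRI1 libraries, against 82.7, 101 and 105 CPM in the mCHERRY libraries. All 3 GmWRI1 libraries were far below all mCHERRY libraries, and GmWRI1 replicate 3 was the highest of its group. The means were 20.3 ± 8.17 CPM in GmWRI1 and 96.0 ± 11.7 CPM in mCHERRY (SD, n = 3 each), and the fitted fold was 0.203, a log2 fold change of -2.30 (SE 0.17). These levels rested on 176, 117 and 147 counts in GmWRI1 and on 676, 620 and 423 counts in mCHERRY. Of the 14762 tested genes, JAZ8 had the 4th lowest log2 fold change. The lowest, -2.40, was that of AT1G53790, which rested on 6, 6 and 5 counts in GmWRI1. Ranked by CPM among all transcripts, JAZ8 stood at 8207, 8064 and 5720 in GmWRI1 and at 2350, 1953 and 1866 in mCHERRY.

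The DNA around the start of JAZ8 is shown because the reads are from an experiment with a transcription factor, and because MYC2-type factors are known to bind the G-box. Letters were searched on both strands in the 500 bases before and the 500 bases from each transcript start, in the RefSeq models on TAIR10.1. The searched motifs were the G-box, CACGTG, which reads the same on both strands, and the AW Box, the element known for binding by WRINKLED1, which is CNTNG, then 7 bases of any kind, then CG. In the following sites of JAZ8 and of its nearest relative JAZ7, capitals mark the motif.
JAZ8 G-box, chr1:10596342-10596347, at -10 from the start: aaaaacattttcCACGTGagagaattgaag
JAZ7 G-box, chr2:14572996-14573001, at -34 from the start: aaaagcattttaCACGTGcgtgaagagaaa
JAZ8 AW Box, chr1:10596396-10596409, in the 5′ UTR: gagtccgcCGTTGTAAAACTCGtgttttgt

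A G-box stood in the 500 upstream bases of 6 of the 10 members (JAZ2, JAZ3, JAZ6, JAZ7, JAZ8 and JAZ9) and of 10.5% of 21430 nuclear genes. In the 500 bases from the start it stood in 2 members, JAZ1 and JAZ9, and in 6.71% of genes. The AW Box was found upstream in 2 members, JAZ3 and JAZ6, and in 18.9% of genes, and from the start on in 5 members (JAZ2, JAZ6, JAZ8, JAZ10 and JAZ12) and in 41.2% of genes. JAZ8 aside, an upstream G-box stood in JAZ3 and JAZ7 (lower without the fold limit), JAZ9 (higher), and JAZ2 and JAZ6 (no call). Whether the motif bears on these changes was not tested. The following sites are shown from members that moved in opposite directions, JAZ3 being lower and JAZ9 and JAZ10 higher in GmWRI1.
JAZ3 G-box, chr3:6119625-6119630, at -82 from the start: tgcacgacgatgCACGTGcctttttaaccg
JAZ9 G-box, chr1:26654163-26654168, at -366 from the start: attcaaaaatttCACGTGttatgaaatgag
JAZ10 AW Box, chr5:4219097-4219110, in a coding exon: tcgatcgcCGTCGTAGTTTCCGaggttcgt

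JAZ3 also had a second G-box further upstream that overlaps its AW Box, and the AW Box of JAZ10 overlaps another on the opposite strand. These matches describe letters in the reference, and binding at them was not analysed here.

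**Figure D2:**
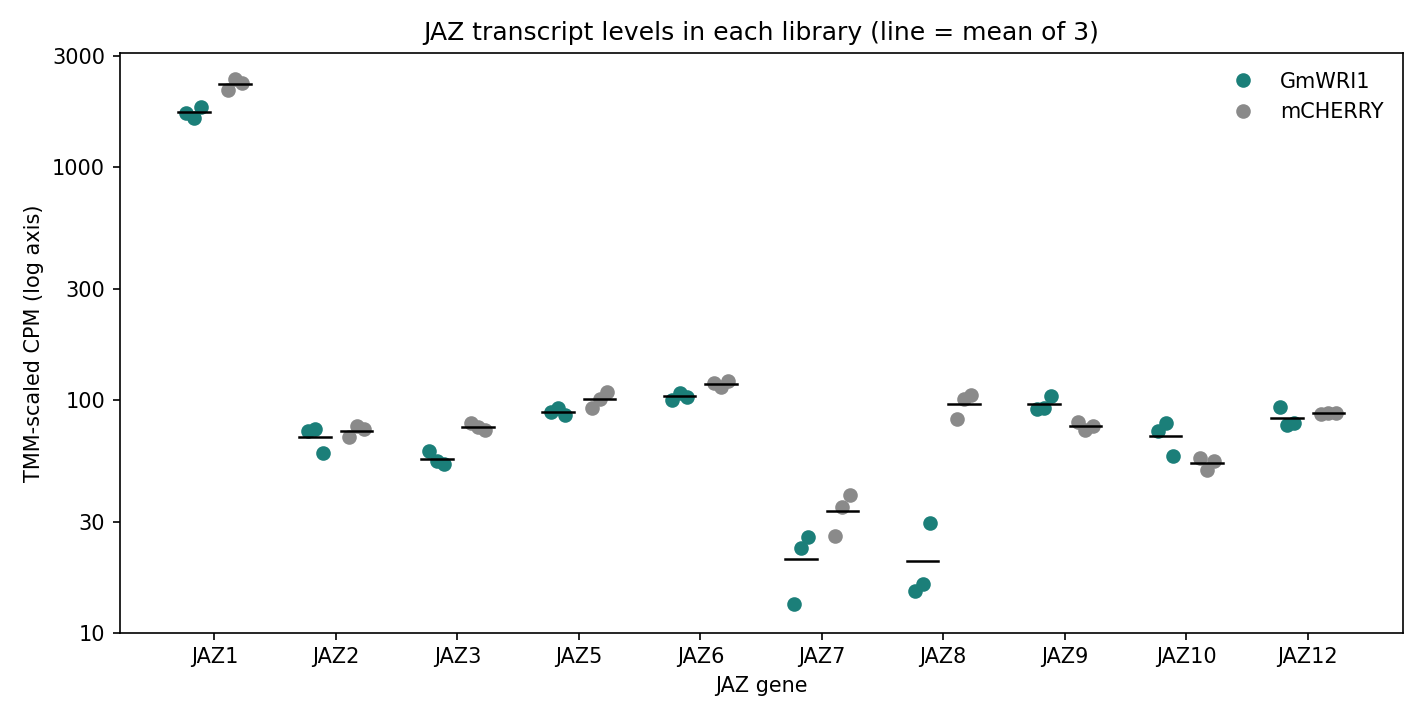
TMM-scaled CPM of each JAZ member in each library, on a log axis, with GmWRI1 points left of mCHERRY points. The groups stand apart in JAZ8, at 15.0 to 29.7 CPM in GmWRI1 and 82.7 to 105 CPM in mCHERRY, while JAZ1 lies at 1635 CPM or more in every library.

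JAZ7 (AT2G34600, chr2:14573030-14573952, plus strand), like JAZ8, encodes a short repressor without the canonical degron. It had 13.2, 23.1 and 25.9 CPM in the GmWRI1 libraries, against 25.9, 34.7 and 39.1 CPM in the mCHERRY libraries. The GmWRI1 libraries all lay below the mCHERRY libraries, but only just, since the highest GmWRI1 value (25.89 CPM) nearly touched the lowest mCHERRY value (25.93 CPM). JAZ7 fell in GmWRI1, with a log2 fold change of -0.71 (SE 0.20, adjusted p = 0.00707 in edgeR). Without GmWRI1 replicate 1 the log2 fold change was -0.42 and the edgeR adjusted p 0.0588, so the call rests on that library. The ratio of JAZ8 to JAZ7 in CPM was 1.14, 0.701 and 1.15 in the GmWRI1 libraries and 3.19, 2.90 and 2.68 in the mCHERRY libraries. These did not overlap, which restates the fall of JAZ8 by which the family was chosen and is no separate result.

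JAZ8 and JAZ7 were also the members that varied most within a group. The highest GmWRI1 library exceeded the lowest 1.98-fold in JAZ8 and 1.96-fold in JAZ7, against 1.08-fold to 1.39-fold in the other 8 members. In both genes replicate 3 was the highest and replicate 1 the lowest, in GmWRI1 and in mCHERRY alike. The same order occurred for JAZ9 in GmWRI1 and for JAZ5 and JAZ12 in mCHERRY. Replicate 1 also had the most gene counts and replicate 3 the fewest in each group, and a part of depth in this order was not tested. The coefficient of variation was 40.2% in GmWRI1 and 12.2% in mCHERRY for JAZ8, and 32.0% and 20.2% for JAZ7.

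JAZ1 (AT1G19180, chr1:6621777-6623668, plus strand), a repressor degraded through COI1, was by far the most abundant member. It was at 1720.2, 1635 and 1825 CPM in the GmWRI1 libraries, against 2158, 2393 and 2298 CPM in the mCHERRY libraries. The groups did not overlap, and JAZ1 fell in GmWRI1 with a log2 fold change of -0.40 (SE 0.087, adjusted p = 0.000969 in edgeR). Its mean of 1727 ± 95.2 CPM in GmWRI1 and 2283 ± 119 CPM in mCHERRY (SD, n = 3 each) placed it at ranks 40 to 41 and 28 to 33 among all transcripts. JAZ3 (AT3G17860, chr3:6119707-6123044, plus strand), the member whose dominant jai3 mutation makes plants insensitive to jasmonate, had 60.3, 54.5 and 53.0 CPM in the GmWRI1 libraries, against 79.4, 76.3 and 74.2 CPM in the mCHERRY libraries. Every GmWRI1 library was below every mCHERRY library, and JAZ3 fell with a log2 fold change of -0.45 (SE 0.10, adjusted p = 0.00124 in edgeR).

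JAZ9 and JAZ10 moved the other way. JAZ9 (AT1G70700, chr1:26654529-26657350, plus strand), a repressor that binds MYC2, had 91.4, 92.4 and 104 CPM in the GmWRI1 libraries, against 80.2, 74.0 and 77.7 CPM in the mCHERRY libraries. The groups did not overlap, and JAZ9 rose with a log2 fold change of 0.31 (SE 0.096, adjusted p = 0.0169 in edgeR). JAZ10 (AT5G13220, chr5:4218786-4221077, plus strand), known for splice forms that resist degradation, had 73.9, 79.6 and 57.4 CPM in the GmWRI1 libraries, against 56.5, 50.0 and 54.7 CPM in the mCHERRY libraries. Its GmWRI1 replicate 3 was only slightly above the highest mCHERRY library, and JAZ10 rose with a log2 fold change of 0.40 (SE 0.12, adjusted p = 0.0113 in edgeR). Reads were counted per primary transcript, so the splice forms of JAZ10 were not told apart. Both calls rest on single libraries. JAZ9 lost its call without GmWRI1 replicate 3 (0.26, adjusted p = 0.0651 in edgeR) and without mCHERRY replicate 2 (0.27, adjusted p = 0.0999). JAZ10 lost its call without GmWRI1 replicate 2 (0.30, adjusted p = 0.0792 in edgeR) and without mCHERRY replicate 2 (0.34, adjusted p = 0.0785).

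The remaining 4 members did not pass the test. JAZ5 (AT1G17380, chr1:5955155-5957511, minus strand) had 86.2 to 92.8 CPM in GmWRI1 and 92.8 to 108 CPM in mCHERRY, with a log2 fold change of -0.17 (95% interval -0.36 to 0.03, adjusted p = 0.185 in edgeR). JAZ6 (AT1G72450, chr1:27273968-27276562, minus strand) had 99.5 to 108 CPM in GmWRI1 and 114 to 120.5 CPM in mCHERRY, with a log2 fold change of -0.18 (-0.37 to 0.0036, adjusted p = 0.123). In both, all GmWRI1 libraries were below all mCHERRY libraries, in JAZ5 by a narrow margin. JAZ2 (AT1G74950, chr1:28148574-28150446, minus strand) overlapped between the groups, at 59.1 to 75.2 CPM in GmWRI1 and 69.5 to 77.1 CPM in mCHERRY, with a log2 fold change of -0.08 (-0.30 to 0.145, adjusted p = 0.615 in edgeR). JAZ12 (AT5G20900, chr5:7090704-7092539, plus strand), which is known to be bound by the ubiquitin ligase KEG, also overlapped, at 78.1 to 93.7 CPM in GmWRI1 and 87.1 to 88.3 CPM in mCHERRY, with a log2 fold change of -0.06 (-0.27 to 0.14, adjusted p = 0.666 in edgeR). The last exon of JAZ12 shares 28 bases with AIP2 (AT5G20910) on the opposite strand, and strand was not stated to be used in counting. AIP2 had 145, 120.0 and 116 CPM in GmWRI1 and 204, 207 and 208 CPM in mCHERRY, with a log2 fold change of -0.70.

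Outside the 10 loci, JAZ11 (AT3G43440) had 16.9 to 20.0 CPM in GmWRI1 and 16.9 to 24.0 CPM in mCHERRY, and did not pass the test (log2 fold change -0.14, adjusted p = 0.531 in edgeR). JAZ4 had 0, 0 and 0 counts in GmWRI1 and 0, 1 and 0 in mCHERRY, and JAZ13 had 1 or 2 counts in each library, so neither was detectable above the limit of 3 counts.

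Added together, the 10 members made up 2329.7, 2255 and 2423 CPM in the GmWRI1 libraries and 2850, 3109 and 3040 CPM in the mCHERRY libraries, and the groups did not overlap. The mean sum differed by -664 CPM, of which JAZ1 made up -556 CPM and JAZ8 -75.7 CPM. JAZ1 alone held 73.9 ± 1.40% of the family's CPM in GmWRI1 and 76.1 ± 0.759% in mCHERRY (SD, n = 3 each). JAZ8 held 0.863 ± 0.317% in GmWRI1 and 3.19 ± 0.273% in mCHERRY. Among the 9 members other than JAZ1 its share was 3.35 ± 1.41% in GmWRI1 and 13.4 ± 1.23% in mCHERRY. These shares were not corrected for transcript length, and the JAZ8 transcript, at 806 bases, is the shortest of the 10. Without JAZ1 the mean sum was 609 ± 10.9 CPM in GmWRI1 and 716 ± 24.9 CPM in mCHERRY. That sum still includes JAZ8, which made up -75.7 CPM of its mean difference of -107.5 CPM.

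Levels of different members were compared per kilobase of transcript. JAZ1 came first in both groups, at 1108 CPM per kilobase in GmWRI1 and 1465 CPM per kilobase in mCHERRY. JAZ8 was 9th of 10 in GmWRI1, at 25.2 ± 10.1 CPM per kilobase, and 2nd in mCHERRY, at 119 ± 14.5 CPM per kilobase. In GmWRI1, JAZ8 could not be separated from its neighbours JAZ3 above and JAZ7 below, whose libraries overlapped its own, whereas in mCHERRY it was clear of both JAZ1 and JAZ12. JAZ9 was 4th in GmWRI1 and 8th in mCHERRY, at 54.1 and 43.6 CPM per kilobase, and JAZ10 was 6th and 10th, at 50.8 and 38.8 CPM per kilobase. In GmWRI1, neighbours overlapped within the run JAZ9, JAZ2, JAZ10 and JAZ5. In mCHERRY they did so within the run JAZ3, JAZ9, JAZ7 and JAZ10, as did JAZ2 with JAZ5. The order within these runs is not resolved.

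**Figure D3:**
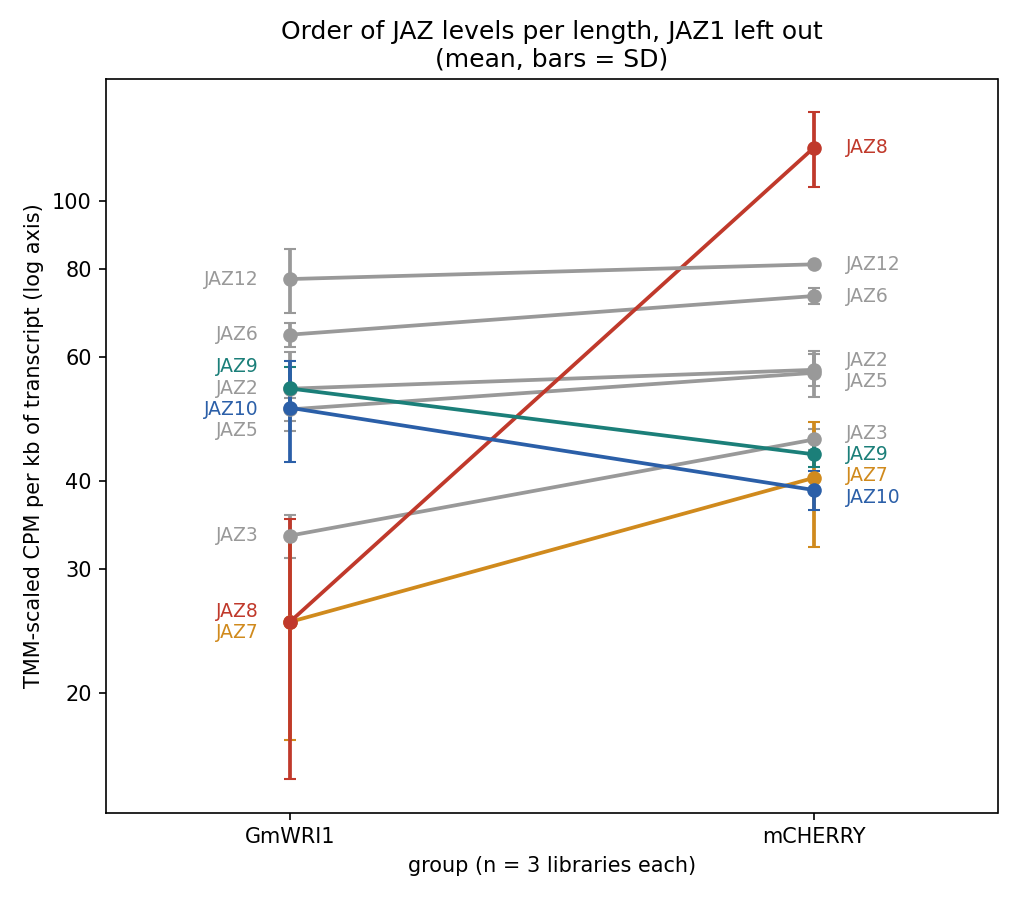
Mean TMM-scaled CPM per kilobase of transcript for the 9 JAZ members other than JAZ1, on a log axis, with GmWRI1 left of mCHERRY, bars for the SD over 3 libraries and a line for each member. JAZ8 lies at the lower end in GmWRI1 (25.2 CPM per kilobase) and above the other 8 in mCHERRY (119 CPM per kilobase), while the lines of JAZ9 and JAZ10 slope the other way.

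The genes around the JAZ repressors were described by role. Of the receptor complex, none of 5 tested genes was up- or down-regulated by both limits in edgeR, 1 was lower at an adjusted p under 0.05 alone (CUL1, the cullin of the complex, against 14.6% of all tested genes), and 1 was lower and 1 higher at an unadjusted p under 0.05, against 19.3% and 24%. COI1, the JAZ receptor, had 29.5, 28.9 and 32.8 CPM in GmWRI1 and 33.1, 33.6 and 33.9 CPM in mCHERRY, with a log2 fold change of -0.15 (adjusted p = 0.362 in edgeR). Of 6 corepressor genes, none passed both limits, 3 were lower without the fold limit (TPR1, TPR3 and TPR4, relatives of TOPLESS) and 1 was higher (TPL, TOPLESS itself), against 14.6% and 20.4% of all tested genes, and the unadjusted counts were also 3 and 1. NINJA, the adaptor, had 41.2, 45.2 and 48.1 CPM in GmWRI1 and 35.2, 41.4 and 43.8 CPM in mCHERRY, and its groups overlapped (log2 fold change 0.16, adjusted p = 0.309 in edgeR).

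Among 10 tested genes for factors that JAZ proteins bind or act with, 4 were lower without the fold limit (MYC2, MYC3, MYC4 and JAM2), against 14.6% of all tested genes, and 2 higher (MYC5 and JAM1), against 20.4%. MYC2, the main activator of jasmonate responses, had 114, 115 and 121 CPM in GmWRI1 and 136, 148 and 149.7 CPM in mCHERRY, and fell with a log2 fold change of -0.31 (adjusted p = 0.00969 in edgeR). Without mCHERRY replicate 2 this call was lost (-0.29, adjusted p = 0.0574 in edgeR). MYC4, a close relative, had 2.90, 4.98 and 5.26 CPM in GmWRI1 and 8.32, 8.60 and 9.65 CPM in mCHERRY, and was the only tested gene of the jasmonate lists other than JAZ8 past both limits downward (log2 fold change -1.07, adjusted p = 0.00251 in edgeR). Without GmWRI1 replicate 1 its log2 fold change was -0.77, short of the fold limit. MYC5, a further relative, had 44, 33 and 24 counts in GmWRI1 and 4, 0 and 1 in mCHERRY, and rose (adjusted p = 5.28e-06 in edgeR).

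Of 14 tested synthesis genes, 1 was up-regulated, against 9.44% of all tested genes. LOX2, a plastid lipoxygenase at the start of jasmonate synthesis, had 647, 667 and 567 CPM in GmWRI1 and 234, 261 and 228 CPM in mCHERRY (log2 fold change 1.38, adjusted p = 1.28e-10 in edgeR). Without the fold limit 2 synthesis genes were lower (LOX6 and JAR1), against 14.6% of all tested genes, and 2 higher (LOX2 and OPCL1), against 20.4%. The inactivation genes moved in both directions, with 3 of 9 tested genes up-regulated, against 9.44% of all tested genes, and 5 lower without the fold limit (CYP94B3, IAR3, JOX2, JOX3 and JOX4), against 14.6%, the list's median log2 fold change being -0.30.

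ST2A, a sulfotransferase acting on hydroxylated jasmonate, had 1418, 1174 and 594 counts in GmWRI1 and 2, 0 and 2 in mCHERRY, at least 253-fold higher in GmWRI1 when mCHERRY was set to 3 counts per library. CYP94B1, a hydroxylase of jasmonoyl-isoleucine, had 14.4, 21.6 and 22.2 CPM in GmWRI1 and 6.48, 7.46 and 7.67 CPM in mCHERRY (log2 fold change 1.42, adjusted p = 9.43e-06 in edgeR). CYP94C1, which oxidises the hydroxylated hormone further, had 19.1, 20.2 and 12.3 CPM in GmWRI1 and 6.97, 7.14 and 4.21 CPM in mCHERRY (log2 fold change 1.47, adjusted p = 1.76e-05 in edgeR). Of the 9 tested inactivation genes, only these 3 had every GmWRI1 library above every mCHERRY library, against 24.9% of all tested genes. In 5 every GmWRI1 library was below, against 21.1%. The 3 were picked by their up-regulated call, so their separation is no further support. Of 10 tested jasmonate response genes, none passed both limits, 2 were lower (NAC055 and ERF109) and 2 higher (CORI3 and NATA1) without the fold limit, against 14.6% and 20.4% of all tested genes, and 4 were lower and 2 higher at an unadjusted p under 0.05, against 19.3% and 24%. DESeq2 also called 1 gene of the jasmonate lists other than JAZ down-regulated and 5 up-regulated, as edgeR did.

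**Figure D4:**
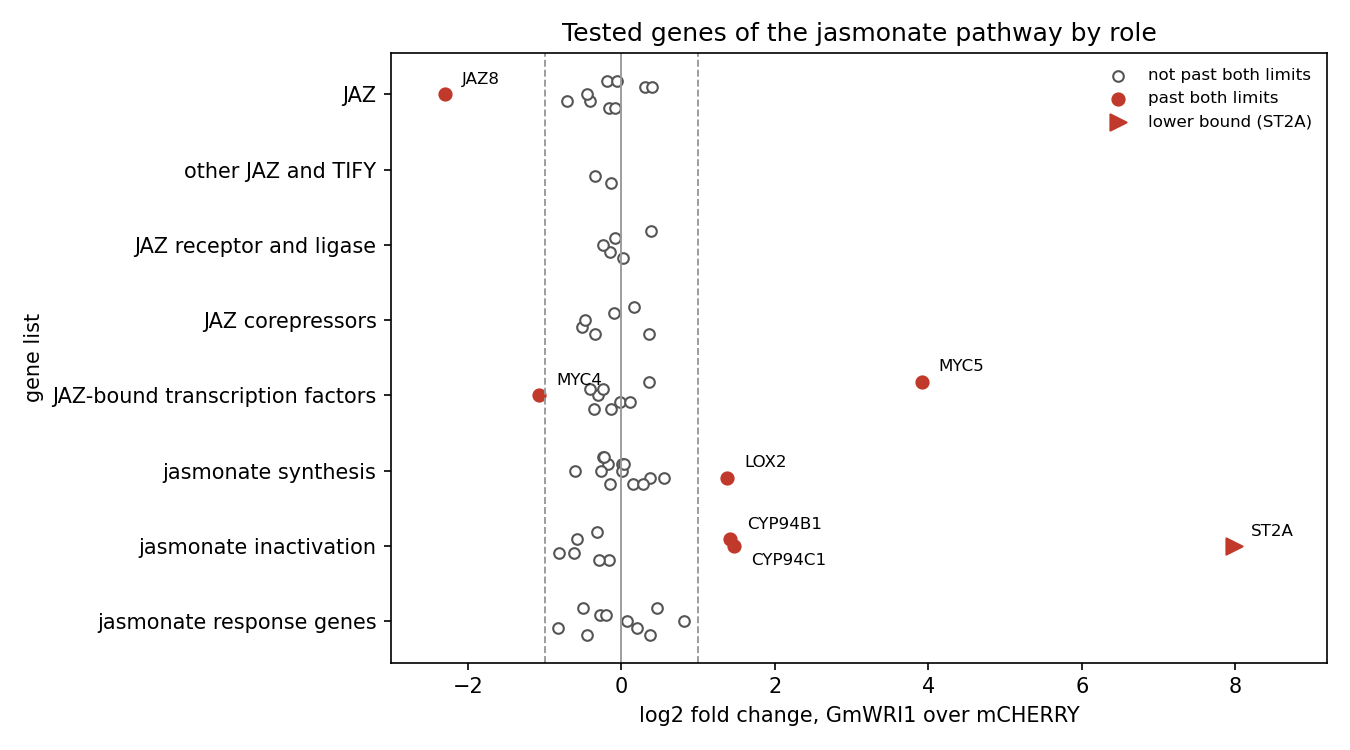
Log2 fold change, GmWRI1 over mCHERRY, of every tested gene of the jasmonate lists, 1 line of points a list; dashed lines mark the fold limits of -1 and 1, filled points pass both limits and the triangle is a lower bound. The open points lie between the fold limits, and the named points are JAZ8, MYC4, MYC5, LOX2, CYP94B1, CYP94C1 and ST2A.

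The genes whose pattern over the 6 libraries was most like that of JAZ8 were then sought. The measure was the root-mean-square difference in log2 CPM, each gene centred on its own mean. It depends largely on the size of the fall, the value that chose JAZ8, so genes with like falls come first. The 5 genes found had log2 fold changes of -2.40 to -1.74. Outside the lists the nearest was AT5G39730, annotated as an AIG2-like protein, at 0.20. Then came AT1G53790, annotated as an F-box protein, at 0.30, on only 6, 6 and 5 counts in GmWRI1 and 35, 21 and 16 in mCHERRY. XTR6 (AT4G25810), a xyloglucan endotransglycosylase, was at 0.33. AT1G10585, annotated as a basic helix-loop-helix protein, followed at 0.35, and AT1G48720, annotated as Copia-like, at 0.36. AT5G39730 had 5.98, 5.94 and 9.71 CPM in GmWRI1 and 37.4, 38.9 and 30.9 CPM in mCHERRY. Its GmWRI1 replicate 3 was the highest of its group, as in JAZ8. Its mCHERRY replicate 3 was the lowest of its group, whereas in JAZ8 that library was the highest. AT1G10585, the most abundant of the 5, had a mean of 136 ± 20.5 CPM in GmWRI1 and 455 ± 24.9 CPM in mCHERRY (SD, n = 3 each). Within the family JAZ7 was nearest to JAZ8, at 0.83 and rank 407 of all tested genes, and the other 8 members lay at 0.98 to 1.41.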

How the data were processed

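RNA-seq libraries of transfected protoplasts were compared, 3 with GmWRI1 and 3 with mCHERRY, grouped by their titles. The authors aligned reads to TAIR10 primary transcripts with Bowtie 0.12.7, allowing 2 mismatches, and deposited raw counts per transcript, one file a library. A line naming no gene held 39.4% to 63.3% of each file's reads and was left out. The authors also deposited a TMM-normalized signal table made with edgeR 3.10.5, which lists 15541 transcripts, all 10 members among them, and equals the counts divided by 1 constant per library; it was used only to set the gene set of an alternative. Of all per-sample columns, 0 were set aside. No 30-base window of a member was shared exactly with another counted transcript, and strand was not stated to be used. RNA of the GmWRI1-A and mCHERRY transgenes was not analysed here.

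Counts were fitted with edgeR 4.0.16 (R 4.3.3; TMM scaling, filterByExpr with a minimum count of 10, quasi-likelihood test, group only), with Benjamini-Hochberg adjustment over all 14762 tested genes and limits of 0.05 and an absolute log2 fold change of 1. The fit was tested on simulated data. Log2 CPM used a prior count of 2. The p-values measure the spread between these libraries only. The authors describe a transfection for each biological replicate, but not whether the protoplasts came from separate preparations. The members and gene lists were chosen with earlier results of these data known. All members were named, with the called genes of largest change in each list (up to 4), COI1, NINJA, MYC2 and the 5 genes most like JAZ8. Other list genes named without values were named after their values were seen, and AIP2 was named because its exon overlaps JAZ12. Alternatives were other scalings, tests (DESeq2 1.42.0 among them) and filters, a replicate block and leaving out each library. RefSeq models matched 21431 of 21671 transcripts and gave coordinates, lengths and sequences.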

Additional observations from a re-analysis of the deposited data

How the results depend on the processing

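Over 15 alternatives, the log2 fold change was -2.61 to -2.09 for JAZ8, -0.44 to -0.36 for JAZ1, -0.51 to -0.40 for JAZ3, -0.88 to -0.42 for JAZ7, 0.26 to 0.34 for JAZ9 and 0.30 to 0.52 for JAZ10. JAZ1 and JAZ3 had an adjusted p under 0.05 in 15 of 15 alternatives, JAZ7 in 14, and JAZ9 and JAZ10 in 13 each. JAZ2, JAZ5, JAZ6 and JAZ12 had one in 0 of 15, and JAZ2, at -0.13 to 0.029 with a library left out, changed sign without GmWRI1 replicate 3 (0.029, adjusted p = 0.874 in edgeR). With each library left out in turn, 1 member, JAZ8, was down-regulated and 0 were up-regulated throughout. Because JAZ8 chose the family, its own calls are a description and no test of the family. Counting JAZ8, 3 to 4 members were lower without the fold limit, and 0 to 2 were higher. That last count was 1 without GmWRI1 replicate 2 or replicate 3 and 0 without mCHERRY replicate 2. Over all genes, 188 to 276 were then down-regulated (214 with all libraries) and 1258 to 1480 up-regulated (1393 with all libraries).

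The jasmonate lists other than JAZ had 1 down-regulated gene, but 2 with no expression filter, 2 with at least 1 CPM in at least 3 libraries and 2 with the gene set of the authors' table, an alternative chosen after seeing the data. These settings test more genes, and the added one was ORA59 (log2 fold change -1.59). The up-regulated count was 6 in the same 3 settings, where JMT was added (log2 fold change 2.85 to 2.86). Both genes were named after their values were seen, and both rest on few counts. ORA59 had 9, 5 and 2 counts in GmWRI1 and 9, 17 and 10 in mCHERRY. JMT had 49, 18 and 5 counts in GmWRI1 and 7, 0 and 0 in mCHERRY. With a library left out the down-regulated count was 1 to 2, and the up-regulated count 5 to 6.

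Deviations of same-numbered libraries correlated at 0.10, -0.01 and 0.04 across genes, and those of differently numbered libraries at -0.07 to 0.03. Whether same-numbered libraries were prepared together is not given, and such weak values cannot decide it. With a replicate block, 4 members, JAZ8 among them, were lower and 2 higher without the fold limit, as without the block. JAZ8 alone was down-regulated and 0 members were up-regulated, also as without the block. Over all genes, 220 were then down-regulated and 1390 up-regulated. At this depth JAZ4 and JAZ13 could not be compared.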
